A study of Mus musculus with 6 samples.

Results

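Genes of retinoid synthesis and binding, 9 in all, were followed in whole skin of control mice and of mice lacking JunB in the epidermis. They are Rbp4, Adh1, Dhrs9, Aldh1a1, Aldh1a2, Aldh1a3, Aldh1a7, Crabp1 and Crabp2, and they were found by their symbols among the 23951 genes of the expression table. All 9 members were present and all 9 passed the filter on low values (0.1 FPKM or more on average across the 6 libraries). FPKM counts sequenced fragments after division by transcript length and by library size, so levels can be set side by side between genes.

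The 3 control mice carry the genotype label JunB +/+ and the 3 mutant mice the label JunB dep, written JunBdep here, and all are C57Bl/6 mice aged 6 to 7 months. In the mutants a Cre recombinase under the keratin 5 promoter removes JunB from K5-expressing cells (basal keratinocytes and the outer layers of hair follicles), while other skin cells keep the gene. Per the study's text both sexes were used and the mutant skin was lesional. Each library is poly(A) RNA of whole skin from 1 mouse, and the labels give no body site.

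Retinoids are derivatives of vitamin A. Retinol reaches tissues bound to RBP4, is oxidised reversibly to retinaldehyde by alcohol dehydrogenases and short-chain dehydrogenases, and is then oxidised irreversibly to retinoic acid by retinaldehyde dehydrogenases of the ALDH1A family. Cellular retinoic acid-binding proteins carry retinoic acid inside the cell, where it binds nuclear receptors of the RAR family paired with RXR, and CYP26 enzymes degrade it. In skin the pathway is known for its effects on keratinocyte differentiation, sebaceous glands and the hair cycle. JunB is a subunit of the transcription factor AP-1, which binds the letters TGACTCA and TGAGTCA.

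No member passed the test. By limma on log2(FPKM + 0.5), with Benjamini-Hochberg adjustment over all 17021 genes tested and a threshold of 0.05, 0 of the 9 were called higher and 0 were called lower in JunBdep skin, where 0.0% of all tested genes were called higher and 1.38% lower (235 genes). At an unadjusted p below 0.05, 1 member (Aldh1a3) was higher and 1 (Aldh1a1) was lower, beside 1.43% and 6.13% of all tested genes. The 3 JunBdep values lay wholly above the 3 control values for 1 member (Dhrs9) and wholly below for 1 (Aldh1a1), against 5.62% and 9.16% of all tested genes. For a single gene the exact permutation test (two-sided, all assignments of the 6 mice) has 0.1 as its smallest p and so cannot pass the threshold. P-values refer to the spread between these mice. On simulated data limma recovered 0% of genes set to a log2 change of 1 and 58.5% of those set to 2. A gene without a call may therefore still have changed by such an amount.

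Junb, the deleted gene, was not below the controls in every JunBdep library. Other skin cells keep the gene, so its level in whole skin does not test the epidermal deletion or the label. JunBdep 1 and 2 had 42.8 and 28.0 FPKM, below the 59.3, 72.4 and 56.9 FPKM of controls 0, 1 and 2, while the library labelled JunBdep 0 had 129.6 FPKM, above every control. That library was the highest or the lowest of the 6 for 8 of the 9 members (4 highest, 4 lowest), and for 61.7% of all tested genes. Log2 fold changes of the members are therefore given with and without it, and JunBdep 0 always means the library so labelled. It also carried the highest sum of neutrophil markers (24977 FPKM, against 20.5 to 1524 FPKM in the controls), nearly all of it from S100a8 (24456 FPKM), a gene of neutrophils and of stressed keratinocytes. Csf3r, Cxcr2, Retnlg and Mmp9 of that list were highest there too, while S100a9 and Elane were listed at 0. In every other mouse S100a8 and S100a9 were both above 0. They were at 744 and 698 FPKM in control 0, 8.15 and 3.81 FPKM in control 2, and 65.6 and 65.8 FPKM in JunBdep 2. Whether the 0 for S100a9 is a true absence was not tested. The sum of 10 mucosal epithelium markers was likewise highest there (3801 FPKM, against 8.30 to 122 FPKM in the controls), and it rested on Krt13, Krt4 and Sprr3. Of that list, 4 markers were lowest in the same library, among them Krt7 (0.550 FPKM) and Krt19 (0.635 FPKM). The 9 keratinocyte markers followed here were above 0 in every mouse, though at uneven levels, since in the library labelled JunBdep 0 Krt5 (3725 FPKM) and Krt1 (4466 FPKM) were at their highest and Krt15 (80.7 FPKM), Col17a1 (92.3 FPKM) and Lor (823 FPKM) at their lowest. Xist, which is expressed from the inactive X chromosome of females, was at 27.6 to 34.2 FPKM in control 1, JunBdep 1 and JunBdep 2 and at or below 0.0274 FPKM in the others, so the sexes were not balanced between the groups. Sample names fall into the series ESC23 (controls 0 and 1, the library labelled JunBdep 0) and ESC27 (control 2, JunBdep 1 and 2), and what the series stand for is not stated in the sources used here.

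**Figure D1:**
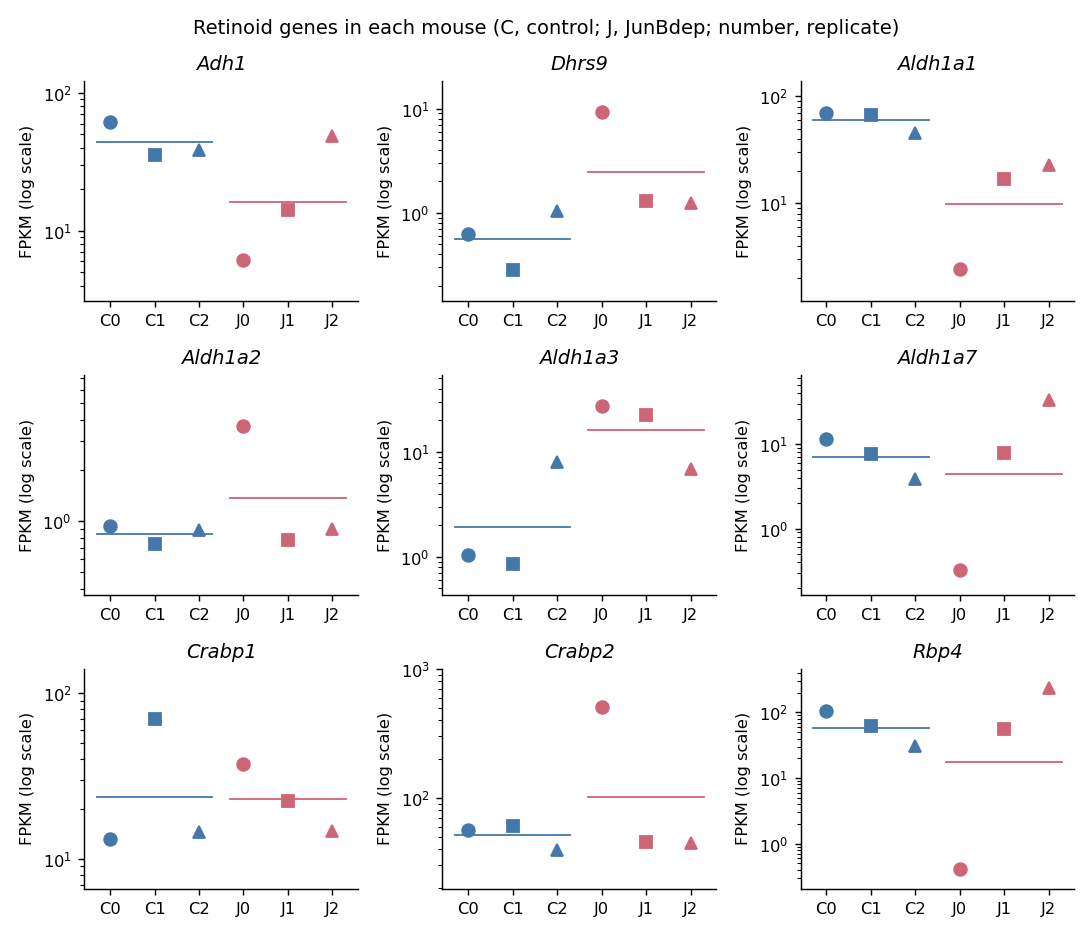
Level of each of the 9 genes in each mouse, in FPKM on a log axis that differs between panels; circles, squares and triangles are replicates 0, 1 and 2, blue is control, red is JunBdep, and lines are geometric means of 3 mice. The groups are separate for Dhrs9 and Aldh1a1 and overlap for the other 7 genes.

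In control skin the order of mean levels was Rbp4 (65.1 ± 36.6 FPKM, SD, n = 3), Aldh1a1 (60.5 ± 13.1), Crabp2 (52.3 ± 11.3), Adh1 (45.1 ± 13.9), Crabp1 (32.7 ± 32.7), Aldh1a7 (7.69 ± 3.87), Aldh1a3 (3.29 ± 4.04), Aldh1a2 (0.852 ± 0.105) and Dhrs9 (0.646 ± 0.377). Neighbours in this order had overlapping values except Crabp1 and Aldh1a7, which marked a step between 5 well expressed and 4 weakly expressed genes. In JunBdep skin the order was Crabp2 (198 ± 264 FPKM), Rbp4 (96.5 ± 121), Crabp1 (24.9 ± 11.6), Adh1 (23.2 ± 22.9), Aldh1a3 (18.7 ± 10.5), Aldh1a1 (14.1 ± 10.5), Aldh1a7 (13.8 ± 17.2), Dhrs9 (3.92 ± 4.60) and Aldh1a2 (1.78 ± 1.64), and every pair of neighbours overlapped. The spread within the JunBdep group exceeded its mean for 4 genes, namely Crabp2, Rbp4, Aldh1a7 and Dhrs9.

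Rbp4, the carrier of retinol in blood, which is made mainly by liver and fat, varied more between mice than any other member. The gene lies on chromosome 19 from 38191110 to 38199811 on the minus strand (mm9). Its level was 103, 61.4 and 30.5 FPKM in controls 0, 1 and 2, 0.409 FPKM in the library labelled JunBdep 0, and 56.5 and 232.5 FPKM in JunBdep 1 and 2. The JunBdep group held both the lowest and the highest of the 6 values, which were 569-fold apart. Limma gave a log2 fold change of -1.35 (SE 1.99, 95% interval -6.20 to 3.50, adjusted p = 0.819), which turned to 0.98 once the library labelled JunBdep 0 was left out. Within ESC23 the JunBdep library was lower by a log2 difference of -6.46, and within ESC27 the JunBdep mice were higher by 1.90.

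Most fat markers, like Rbp4, were lowest in the library labelled JunBdep 0 and highest in JunBdep 2. The sum of 10 white adipocyte markers was 3193, 6125 and 2050 FPKM in controls 0, 1 and 2, 121 FPKM in the library labelled JunBdep 0, and 3129 and 15619 FPKM in JunBdep 1 and 2. All 10 of these markers were at their lowest in the library labelled JunBdep 0, and none was listed at 0. In JunBdep 2 all but Lep (leptin) were at their highest, while Lep was there at 33.1 FPKM, below every control. Adipoq, which encodes the fat hormone adiponectin, was at 310, 455 and 175 FPKM in the controls, 1.61 FPKM in the library labelled JunBdep 0, and 213 and 936 FPKM in JunBdep 1 and 2. Among the controls the orders differed, with Rbp4 highest in control 0 and Adipoq and the sum highest in control 1. The ratio of Rbp4 to Adipoq stayed between 0.135 and 0.333 in the 6 mice. The sum of 12 liver markers was 3559 FPKM in control 0, where Alb (albumin) was at 823 FPKM, and 36.5 to 774 FPKM in the other 5 mice. In those 5 mice most of the sum came from Trf (33.1 to 743 FPKM), while Alb was at or below 18.8 FPKM. The part of fat or liver RNA in the Rbp4 values was not tested, and in RNA from whole skin fewer cells of a type and less RNA per cell cannot be told apart.

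Adh1 encodes the class I alcohol dehydrogenase, which oxidises retinol as well as ethanol, and lies on chromosome 3 from 137923955 to 137953662. It was at 61.1, 35.7 and 38.4 FPKM in the controls, at 6.15 FPKM in the library labelled JunBdep 0, and at 14.2 and 49.1 FPKM in JunBdep 1 and 2. The library labelled JunBdep 0 and JunBdep 1 were below every control, and JunBdep 2 was within the control range. Adh1 had a log2 fold change of -1.39 (SE 0.72, 95% interval -3.14 to 0.37, adjusted p = 0.722 from limma), of -0.71 without the library labelled JunBdep 0, and of -2.16 without JunBdep 2 (adjusted p = 0.119, its lowest under any alternative). The sign was the same within ESC23 (-2.83) and within ESC27 (-0.52). Among the JunBdep mice Adh1 rose in the order of the white adipocyte sum, while among the controls the orders differed. Adh1 was highest in control 0, which also had the highest liver marker sum. The part of fat or liver RNA in the Adh1 values was not tested.

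Dhrs9, a short-chain dehydrogenase that oxidises retinol, lies on chromosome 2 from 69218502 to 69242590. It was low outside the library labelled JunBdep 0, at 0.621, 0.282 and 1.04 FPKM in the controls and 1.30 and 1.24 FPKM in JunBdep 1 and 2. In the library labelled JunBdep 0 it was at 9.23 FPKM. Every JunBdep value was above every control value, by a wide margin only in the library labelled JunBdep 0. For Dhrs9 the log2 fold change was 1.50 (SE 0.72, 95% interval -0.27 to 3.26, adjusted p = 0.719 from limma), and the exact two-sided permutation test gave p = 0.1, the smallest possible. Without the library labelled JunBdep 0 the log2 fold change was 0.68, and it was 3.38 within ESC23 and 0.20 within ESC27.

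The 250 bases upstream of the RefSeq start of Dhrs9 (GRCm38.p6, chr2:69380212-69380461, plus strand) are shown because they hold an AP-1 motif, written in capitals, that ends 11 bases before the start.
Dhrs9: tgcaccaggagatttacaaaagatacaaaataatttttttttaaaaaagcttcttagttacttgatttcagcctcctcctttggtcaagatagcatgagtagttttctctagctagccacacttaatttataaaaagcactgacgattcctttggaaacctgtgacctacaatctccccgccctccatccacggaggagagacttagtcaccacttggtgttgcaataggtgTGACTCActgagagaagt
The GENCODE transcript of Dhrs9 begins 17 bases upstream of the RefSeq start, within that motif.

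The ALDH1A enzymes make retinoic acid from retinaldehyde, and within this family Aldh1a1 was lower and Aldh1a3 higher in most JunBdep mice, neither passing the adjusted threshold. Aldh1a1 lies on chromosome 19 from 20676451 to 20717952 and has 13 exons. Its level was 69.3, 66.7 and 45.4 FPKM in controls 0, 1 and 2, 2.44 FPKM in the library labelled JunBdep 0, and 16.8 and 22.9 FPKM in JunBdep 1 and 2. The groups did not overlap, and the highest JunBdep value was well under the lowest control. Limma put the log2 fold change of Aldh1a1 at -2.50 (SE 0.78, 95% interval -4.40 to -0.59, unadjusted p = 0.0183, adjusted p = 0.422), with p = 0.1 in the exact two-sided permutation test. Without the library labelled JunBdep 0 it was -1.57, with an adjusted p of 0.0961 from limma, the lowest adjusted p of any member under any alternative. It was -4.54 within ESC23 and -1.19 within ESC27. The marker sums of skeletal muscle and of macrophages and dendritic cells were lower in every JunBdep mouse than in any control, the second through 1 gene. For skeletal muscle the sum was between 20568 and 27828 FPKM in controls but between 1912 and 4566 FPKM in JunBdep mice, and 9 of its 12 markers were called lower, beside 1.38% of all tested genes. Those calls went to 4 with no filter on low values, to 3 without the library labelled JunBdep 0, and to 0 with either block and without any 1 of the controls or JunBdep 1. For macrophages and dendritic cells the sum was between 412 and 670 FPKM in controls but between 172 and 400 FPKM in JunBdep mice, most of it from H2-Ab1 (493, 433 and 302 FPKM in controls 0, 1 and 2, and 113, 121 and 288 FPKM in JunBdep 0, 1 and 2). The other 8 markers of that list each overlapped between the groups, and Cd68 was highest in the library labelled JunBdep 0. Every tested marker was negative in log2 fold change in the lists of macrophages and dendritic cells (9), skeletal muscle (12), dermal fibroblasts (10), white adipocytes (10), liver (12), blood endothelium (7) and Schwann cells (7), and the sums of the last 5 overlapped between the groups. The part of these cell types in the Aldh1a1 result was not tested. Sums of sebaceous gland markers, mostly Mgst1, overlapped between the groups, with control sums of 232 to 418 FPKM and JunBdep sums of 253 to 581 FPKM. Of those 10 markers, 6 were negative in log2 fold change, and Scd3 was lower in every JunBdep mouse than in any control (4.73, 4.64 and 2.59 FPKM in the controls, 1.51, 0.662 and 1.08 FPKM in JunBdep 0, 1 and 2).

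RefSeq gives Aldh1a1 starts at 2 places 109385 bases apart, and the GENCODE coding transcript begins at the downstream one. The 250 bases before the upstream start (GRCm38.p6, chr19:20492333-20492582, plus strand) are shown because they hold an AP-1 motif, in capitals, that ends 50 bases before that start.
Aldh1a1, upstream start: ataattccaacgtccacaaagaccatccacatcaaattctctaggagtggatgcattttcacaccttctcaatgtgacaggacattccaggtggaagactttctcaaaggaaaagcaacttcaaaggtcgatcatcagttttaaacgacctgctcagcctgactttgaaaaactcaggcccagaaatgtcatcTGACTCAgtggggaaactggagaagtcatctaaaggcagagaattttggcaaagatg
The window before the downstream start holds no such motif.

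Aldh1a3, a retinaldehyde dehydrogenase of several epithelia, lies on chromosome 7 from 73535778 to 73572403 on the minus strand. Its level was 1.05, 0.864 and 7.96 FPKM in controls 0, 1 and 2, 27.1 FPKM in the library labelled JunBdep 0, and 22.2 and 6.88 FPKM in JunBdep 1 and 2. The groups overlapped, because control 2 was above JunBdep 2. Aldh1a3 had a log2 fold change of 2.67 (SE 0.85, 95% interval 0.59 to 4.75, unadjusted p = 0.0199, adjusted p = 0.436 from limma), and the exact two-sided permutation test gave p = 0.2. It was 2.31 without the library labelled JunBdep 0, 4.25 within ESC23 and 0.61 within ESC27.

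The summed level of hair follicle markers also differed widely between mice. For the 10 markers it was 56.5, 69.4 and 3926 FPKM in controls 0, 1 and 2, 333 FPKM in the library labelled JunBdep 0, and 6522 and 149 FPKM in JunBdep 1 and 2. Controls 0 and 1 were lowest in both the marker sum and Aldh1a3, and JunBdep 2, control 2 and JunBdep 1 rose in that order in both. The library labelled JunBdep 0 did not follow, with the highest Aldh1a3 (27.1 FPKM) at a sum of 333 FPKM. Krt71, an inner root sheath keratin, ran from 0.191 FPKM in control 0 to 2160 FPKM in JunBdep 1, and Krt75 was listed at 0 in the library labelled JunBdep 0. The part of hair follicle RNA in the Aldh1a3 values was not tested.

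Aldh1a2, the retinaldehyde dehydrogenase best known from embryonic mesoderm, lies on chromosome 9 from 71063596 to 71144050. It was at 0.935, 0.734 and 0.887 FPKM in the controls, at 3.67 FPKM in the library labelled JunBdep 0, and at 0.775 and 0.897 FPKM in JunBdep 1 and 2. The last pair of mice were within the control range. The log2 fold change of 0.53 (SE 0.48, adjusted p = 0.726 from limma) became -0.02 without the library labelled JunBdep 0, and it was 1.65 within ESC23 and -0.06 within ESC27.

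The make-up of the summed FPKM of Aldh1a1, Aldh1a2 and Aldh1a3, a measure chosen after the values were seen, differed between the groups. Aldh1a1 made up 97.2%, 97.7% and 83.7% in controls 0, 1 and 2, 7.36% in the library labelled JunBdep 0, and 42.2% and 74.7% in JunBdep 1 and 2. Aldh1a3 made up 1.47%, 1.27% and 14.7% in the controls and 81.6%, 55.9% and 22.4% in JunBdep 0, 1 and 2. The sum itself was 71.3, 68.3 and 54.2 FPKM in the controls and 33.2, 39.8 and 30.7 FPKM in JunBdep 0, 1 and 2. Each of these 3 quantities was separate between the groups, and since they were picked from these values they are given with no test. With Aldh1a7 added, the sum was 82.9, 75.9 and 58.0 FPKM in the controls and 33.5, 47.7 and 63.8 FPKM in JunBdep 0, 1 and 2, and the groups overlapped, JunBdep 2 being above control 2.

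**Figure D2:**
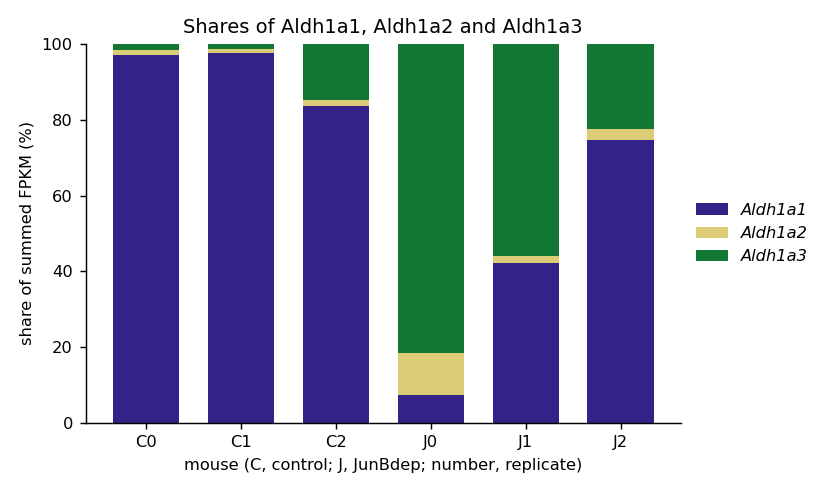
Share of Aldh1a1, Aldh1a2 and Aldh1a3 in their summed FPKM (vertical axis, percent) in each of 3 control (C) and 3 JunBdep (J) mice, numbered by replicate. Aldh1a1 made up 83.7% or more in every control and 74.7% or less in every JunBdep mouse.

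Aldh1a7 is a close relative of Aldh1a1, 49490 bases from it on chromosome 19, from 20767443 to 20802052 on the minus strand. Its level was 11.6, 7.66 and 3.84 FPKM in the controls, 0.326 FPKM in the library labelled JunBdep 0, and 7.88 and 33.1 FPKM in JunBdep 1 and 2. As for Rbp4, the lowest and the highest value were both in the JunBdep group. The log2 fold change of -0.29 (SE 1.32, 95% interval -3.51 to 2.92, adjusted p = 0.944 from limma) became 1.15 without the library labelled JunBdep 0. The difference was -3.59 within ESC23 and 1.95 within ESC27. The ratio of Aldh1a7 to Aldh1a1 was 0.167, 0.115 and 0.0846 in the controls and 0.133, 0.469 and 1.44 in JunBdep 0, 1 and 2, so the pair did not move in step.

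The coding sequences of Aldh1a1 and Aldh1a7 (GENCODE vM1, mm9) were 91.6% identical over 1506 aligned bases, with 1 identical run of 100 bases. In 38.8% of windows of 50 bases they differed by at most 2 bases, the number of mismatches the authors allowed in alignment, so FPKM of the pair may hold shared reads and are uncertain to that extent. The read length was not stated in the labels or methods. Coding bases 742 to 871 are shown as the stretch around the longest identical run, with capitals at the 3 positions that differ.
Aldh1a1: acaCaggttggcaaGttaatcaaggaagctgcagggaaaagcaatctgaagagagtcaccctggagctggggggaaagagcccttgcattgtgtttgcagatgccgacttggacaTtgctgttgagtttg
Aldh1a7: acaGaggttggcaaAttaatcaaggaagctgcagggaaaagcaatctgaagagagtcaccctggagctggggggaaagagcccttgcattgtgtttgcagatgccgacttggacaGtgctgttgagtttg
The other pairs compared had no such window, at 70.1% identity for Aldh1a1 and Aldh1a2, 68.6% for Aldh1a1 and Aldh1a3, 69.6% for Aldh1a2 and Aldh1a3, and 70.8% for Crabp1 and Crabp2.

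Crabp1 and Crabp2 encode the cellular retinoic acid-binding proteins. Crabp2, which delivers retinoic acid to its receptors in the nucleus, lies on chromosome 3 from 87752588 to 87757298. It was at 56.4, 60.9 and 39.4 FPKM in the controls, at 502.8 FPKM in the library labelled JunBdep 0, and at 45.8 and 45.0 FPKM in JunBdep 1 and 2. Outside the library labelled JunBdep 0 the JunBdep values were within the control range. The log2 fold change of 0.97 (SE 0.95, 95% interval -1.35 to 3.30, adjusted p = 0.738 from limma) became -0.18 without that library. It was 3.09 within ESC23 and 0.20 within ESC27. Of the mucosal list, Krt13 and Krt4 stood high in that library too, at 1990 and 1356 FPKM against less than 1 FPKM in the other 5 mice, whereas Krt7, Krt8 and Krt19 were at their lowest there. Whether these markers account for any of the Crabp2 level was not tested.

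Crabp1, which binds retinoic acid in the cytoplasm, lies on chromosome 9 from 54612555 to 54620917. It was at 13.2, 70.4 and 14.5 FPKM in the controls and at 37.5, 22.4 and 14.7 FPKM in JunBdep 0, 1 and 2. Control 1 was the highest mouse, and the JunBdep values lay inside the control range. It was the only member for which the library labelled JunBdep 0 was neither highest nor lowest. The log2 fold change was -0.04 (SE 0.71, 95% interval -1.77 to 1.68, adjusted p = 0.984 from limma). Its sign was not stable, at -0.39 without the library labelled JunBdep 0, 0.72 without control 1 and 0.28 without JunBdep 2. It was 0.29 within ESC23 and 0.32 within ESC27. The interval with all mice includes changes of more than 1 on the log2 scale in either direction.

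**Figure D3:**
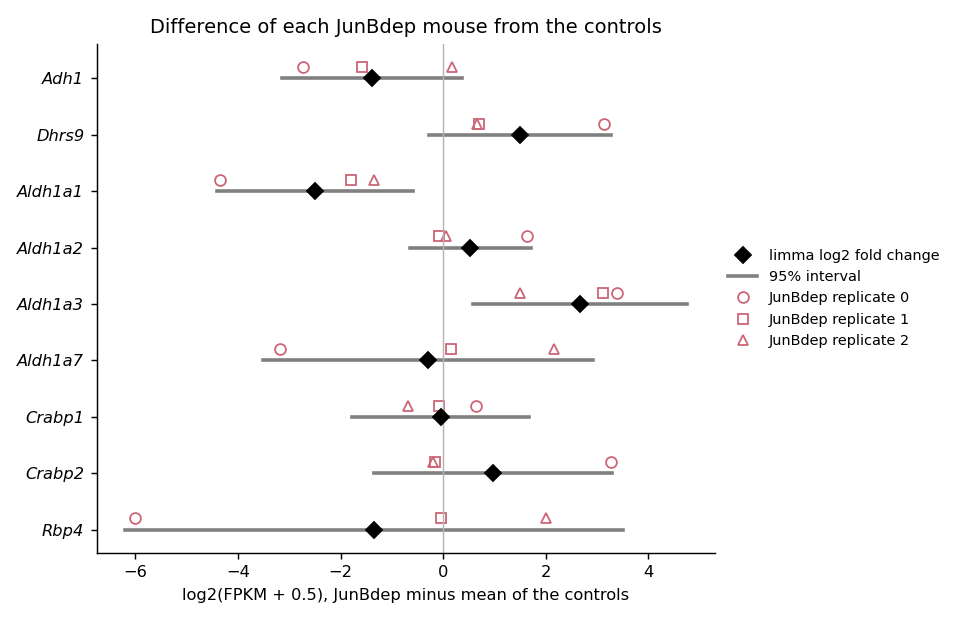
Difference in log2(FPKM + 0.5) between JunBdep skin and the mean of the 3 controls for each gene: open symbols are single JunBdep mice, diamonds the limma log2 fold change and grey bars its 95% interval. The interval is off 0 for Aldh1a1 (-4.40 to -0.59) and Aldh1a3 (0.59 to 4.75), before adjustment over all genes.

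**Figure D4:**
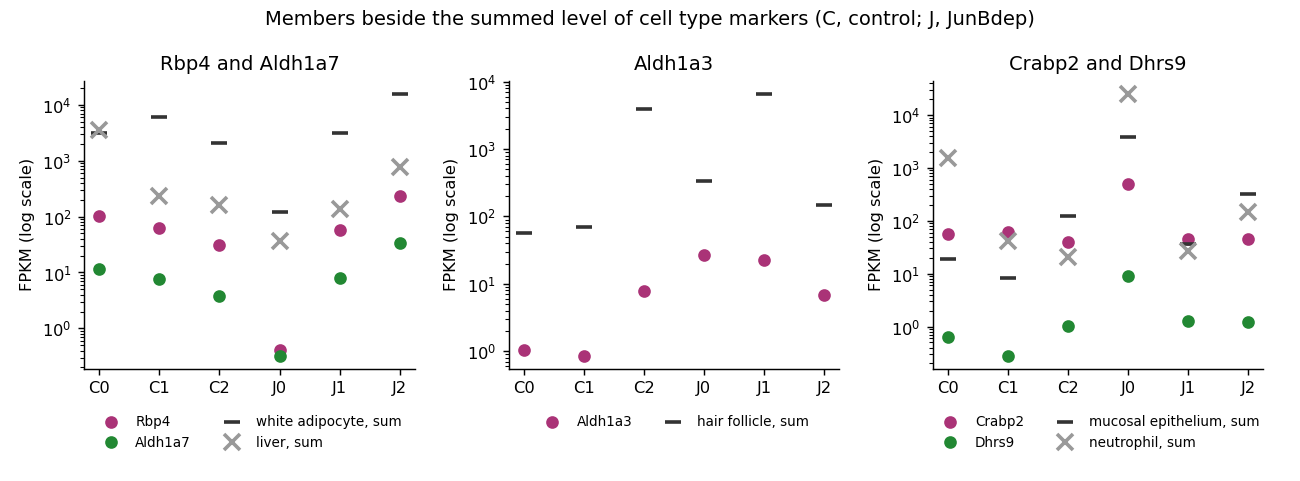
Levels of 5 members (points) beside the summed FPKM of cell type marker lists (dashes and crosses) in each mouse, all on log axes. Rbp4 and the white adipocyte sum were both lowest in the library labelled JunBdep 0 (0.409 and 121 FPKM) and highest in JunBdep 2 (232.5 and 15619 FPKM).

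The members did not move as a block. Over 36 pairs, the Pearson r of log2(FPKM + 0.5) across the 6 mice was positive for 15 and negative for 21. The highest were 0.97 for Aldh1a7 and Rbp4 and 0.97 for Aldh1a2 and Crabp2, and the lowest was -0.97 for Aldh1a1 and Dhrs9. Spearman's rho was 0.94, 0.26 and -0.94 for these pairs, so the mice fell in nearly the same order for the first pair and nearly the opposite order for the last, while the ranks of the second pair followed each other only weakly. These values describe 6 points, which share libraries and include 1 library far from the rest, and carry no p.

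Among all tested genes, those closest to Aldh1a1 over the 6 mice by Pearson r were Kazald1, Pde6d and Dyrk1b, each at 1.00. For Aldh1a3 they were Map3k6 (1.00), Ddx59 (0.99) and Cxxc1 (0.98). For Dhrs9 they were Zzef1 (1.00), Fbxo33 (1.00) and Car12 (1.00), and for Adh1 Nacc2 (1.00), Klhl13 (0.99) and Trim7 (0.99). Rbp4 was closest to Heph (1.00), Srrm4 (1.00) and Pnpla3 (0.99), the last a lipid droplet protein of fat and liver at 4.73 FPKM in the library labelled JunBdep 0 and 56.9 FPKM in JunBdep 2. Aldh1a7 was closest to Lix1 (1.00), Acaa1b (1.00) and Rab2b (0.99), and Crabp1 to Psmb6 (0.99), Urm1 (0.99) and Mrpl13 (0.98). Genes close to Aldh1a2 were Gyk, Ptgs2 and Tnfsf8 (each 1.00), and to Crabp2 the cytokine Il10, the late cornified envelope gene Lce3c and the cytokine Osm (each 1.00). Osm was at 30.0 FPKM in the library labelled JunBdep 0 and at or below 0.471 FPKM elsewhere, and Ptgs2, the inducible cyclooxygenase, was at 28.3 FPKM there and at or below 0.688 FPKM elsewhere. With 6 mice and all tested genes searched, values of r this close to 1 are in part set by the search.

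Of 62 other genes of the retinoid pathway listed for comparison, 61 were in the table and 59 passed the filter. Of these 59, 0 were called higher and 0 lower. At an unadjusted p below 0.05, 1 was higher and 7 were lower, beside 1.43% and 6.13% of all tested genes. The groups were separate upward for 5 and downward for 6, beside 5.62% and 9.16% of all tested genes. Their median log2 fold change was -0.08, beside 0.03 over all tested genes and -0.04 over the 9 members.

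Of the 4 most abundant nuclear receptors, Rarg, Rxra and Rxrb overlapped between the groups and Ppard did not. Rarg, the main retinoic acid receptor of epidermis, averaged 88.0 ± 10.2 FPKM in controls (SD, n = 3) and 87.9 ± 21.7 FPKM in JunBdep mice, with a log2 fold change of -0.02 (95% interval -0.56 to 0.52). Rxra, its partner, was at 52.8 ± 7.01 and 48.2 ± 0.948 FPKM, and Rxrb at 26.7 ± 1.23 and 30.1 ± 4.32 FPKM. Ppard, a fatty acid receptor of keratinocytes, was at 17.6, 13.9 and 17.1 FPKM in the controls, 51.8 FPKM in the library labelled JunBdep 0, and 21.1 and 17.7 FPKM in JunBdep 1 and 2. Its JunBdep values were all above the controls, JunBdep 2 by a narrow margin, with a log2 fold change of 0.72 (adjusted p = 0.722 from limma) that became 0.26 without the library labelled JunBdep 0.

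Chosen after their values were seen, Rarb and Rxrg were lower in every JunBdep mouse than in any control. Rarb, a receptor whose own gene is a classical retinoic acid target, was at 2.07, 2.04 and 1.91 FPKM in the controls and at 0.966, 0.956 and 1.15 FPKM in JunBdep 0, 1 and 2. The library labelled JunBdep 0 did not stand apart from the other 2 for Rarb. Its log2 fold change was -0.72 (SE 0.19, unadjusted p = 0.00836, adjusted p = 0.262 from limma), and -0.69 without that library. Rxrg, an RXR form known from skeletal muscle, was at 9.76, 12.6 and 7.01 FPKM in the controls and at 0.816, 1.89 and 5.13 FPKM in JunBdep 0, 1 and 2 (log2 fold change -1.95, adjusted p = 0.338 from limma, and -1.45 without JunBdep 0), beside the lower muscle marker sum given above.

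Among genes of uptake and storage, Lpl and Cd36, which bring lipids into fat and muscle cells, were lowest in the library labelled JunBdep 0 (9.85 and 14.1 FPKM) and highest in JunBdep 2 (331.7 and 296.0 FPKM), as the adipocyte sum was. Rbp2, a cellular retinol-binding protein, was at 8.43, 6.63 and 5.88 FPKM in the controls, 292.8 FPKM in the library labelled JunBdep 0, and 16.0 and 10.1 FPKM in JunBdep 1 and 2. Its JunBdep values were all above the controls (log2 fold change 2.33, SE 1.23, adjusted p = 0.722 from limma), and the log2 fold change was 0.84 without the library labelled JunBdep 0. Dgat1, which can esterify retinol, was at 32.3, 26.8 and 22.0 FPKM in the controls and at 63.1, 31.0 and 97.6 FPKM in JunBdep 0, 1 and 2, with an unadjusted p of 0.0415 and an adjusted p of 0.621 from limma. Stra6, the membrane receptor for RBP4, was at 1.20, 0.445 and 7.10 FPKM in the controls and at 2.55, 4.69 and 0.666 FPKM in JunBdep 0, 1 and 2.

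Among the other dehydrogenases and reductases, Dhrs3, which turns retinaldehyde back into retinol, averaged 58.4 ± 14.5 FPKM in controls (SD, n = 3) and 49.8 ± 28.8 FPKM in JunBdep mice. Adh7 was at 42.2 ± 3.62 and 36.3 ± 6.49 FPKM and Adh5 at 37.5 ± 3.85 and 35.4 ± 4.68 FPKM, differences within the spread between mice. Of the 21 genes on this list, 3 had an unadjusted p below 0.05 and were lower (Akr1b10, Adh6a and Rdh14, named after their values were seen) and 0 were higher, in a table where 6.13% of all tested genes were lower and 1.43% higher by that measure. Akr1b10, an aldo-keto reductase that reduces retinaldehyde, was at 15.5, 20.2 and 17.5 FPKM in the controls and at 6.35, 4.94 and 11.9 FPKM in JunBdep 0, 1 and 2 (log2 fold change -1.23, adjusted p = 0.286 from limma, and -1.14 without JunBdep 0).

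Of the enzymes that degrade retinoic acid, Cyp26b1 was level, at 19.7, 22.7 and 15.2 FPKM in the controls and 15.9, 21.3 and 17.0 FPKM in JunBdep 0, 1 and 2. Its log2 fold change was -0.08 (95% interval -0.60 to 0.44). Cyp26a1, a sensitive target of retinoic acid in many tissues, was at 1.15 FPKM in control 0, the library with the highest liver markers, and at or below 0.126 FPKM in the other 5 mice. Of 15 tested retinoic acid target genes, 6 had a positive and 9 a negative log2 fold change, and 3 (Rarb, Rarres1 and Rarres2, named after their values were seen) were lower and 0 higher at an unadjusted p below 0.05, again beside 6.13% and 1.43% of all tested genes.

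**Figure D5:**
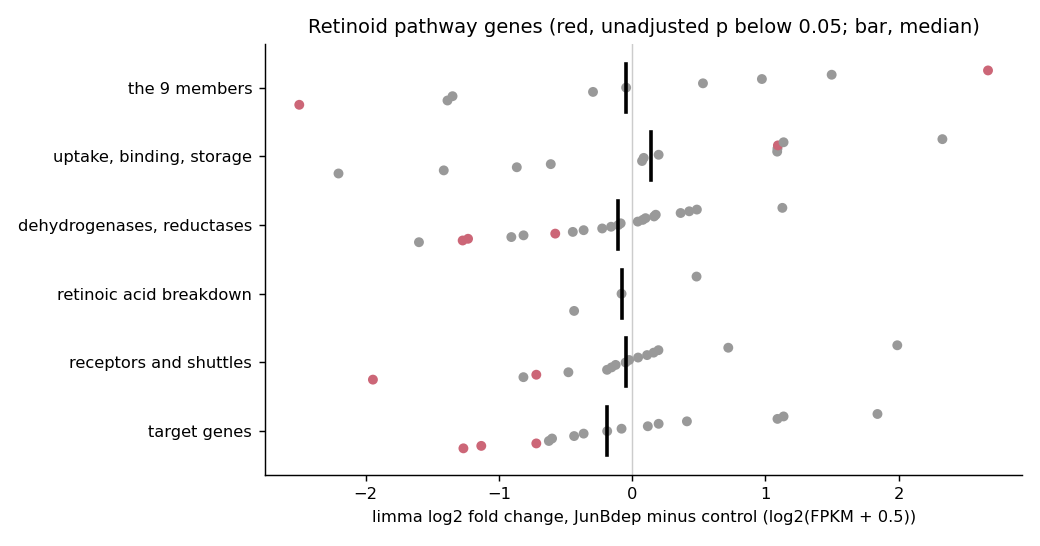
Limma log2 fold change (horizontal axis, JunBdep minus control, on the log2(FPKM + 0.5) scale) of the 9 members and of the other tested retinoid pathway genes by list, 1 point per gene, with the median as a bar and unadjusted p below 0.05 in red. Lists scatter around 0, with medians from -0.19 for target genes to 0.14 for uptake, binding and storage, and no gene passed the adjusted threshold.

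Upstream windows of 250 bases from RefSeq (GRCm38.p6) were matched by symbol for 7 of the 9 members, in 9 windows, and not for Aldh1a3 and Crabp2. The AP-1 motif TGANTCA, which reads the same on both strands, was in 3 of the 9 windows (Dhrs9, the upstream Aldh1a1 start and 1 of the Rbp4 starts), beside 6.75% of all 32851 windows. A pair of AGNTCA elements in the same direction was sought on either strand at a spacing of 5, 2 or 1 bases. It was in 0 of the 9 windows, beside 0.198%, 0.0852% and 0.183% of all windows. Elements beginning with G were not searched and the pattern is rare, so 9 windows cannot decide whether retinoic acid response elements are present. Single AGNTCA matches were in 1 member window (Dhrs9) and in 41.3% of all windows. Of the 3 members with an AP-1 motif, Dhrs9 had a positive and Aldh1a1 and Rbp4 a negative log2 fold change, and a match describes letters only.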

How the data were processed

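Poly(A) RNA from whole skin of 3 control and 3 JunBdep mice was sequenced from stranded libraries. The authors aligned the reads to mm9 with TopHat2 2.0.10, Bowtie 1.0.0 and SAMtools 0.1.19, allowing 2 mismatches, and deposited FPKM values per gene and mouse. Cufflinks, without a version, is among the tools in the submitters' processing notes. Read counts were what the authors tested, with another tool. By that test the paper reports genes that differ between the groups and describes several signalling pathways as upregulated. The absence of genes called higher here is limited to the FPKM test. Counts were not analysed here, so the FPKM values were tested in their place. They sum to 481078 to 630363 per mouse, the read depth is unknown, and no counting interval is given.

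Values were taken as log2(FPKM + 0.5), a scale that understates the change of low genes, and limma 3.58.1 (R 4.3.3; intensity trend, no block) was run over the 17021 genes averaging 0.1 FPKM or more. P-values were two-sided and adjusted by Benjamini-Hochberg, with 0.05 as the threshold, and the procedure was tested on simulated data. Groups came from the genotype labels. Members, marker and pathway lists were chosen with earlier results of these data known. Named pathway genes were the 4 receptors, 4 uptake, breakdown or storage genes and 3 dehydrogenases of highest mean level, with Cyp26a1, Cyp26b1, Stra6, Junb and the 3 genes closest to each member. Others are said to have been chosen after their values were seen. Gene positions are from GENCODE vM1 (mm9), and upstream sequences from RefSeq (GRCm38.p6), with no coordinates converted between builds. Coding sequences were aligned with Biopython 1.88. Alternatives were other pseudocounts, filters, scalings and limma settings, blocks on the replicate number or the name series, each mouse left out in turn and an adjusted p of 0.1.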

Additional observations from a re-analysis of the deposited data

How the results depend on the processing

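Over 17 alternatives to the main settings, 0 members were called in any, and 145 of 153 member values kept their direction. The lowest adjusted p of a member was 0.0961 and the highest 0.998. The 8 reversed values were log2 fold changes of -0.016 for Aldh1a2, -0.18 for Crabp2, 1.15 for Aldh1a7 and 0.98 for Rbp4 without the library labelled JunBdep 0, 0.05 for Aldh1a7 without control 0, and 0.72 without control 1, 0.28 without JunBdep 2 and 0.30 with a block on the name series for Crabp1. With each mouse left out in turn, Aldh1a2 ranged from -0.016 to 0.84, Aldh1a7 from -1.52 to 1.15, Crabp1 from -0.46 to 0.72, Crabp2 from -0.18 to 1.56, Rbp4 from -3.02 to 0.98, Adh1 from -2.16 to -0.71, Dhrs9 from 0.68 to 1.92, Aldh1a1 from -3.07 to -1.57 and Aldh1a3 from 2.20 to 3.52. The replicate numbers did not pair the mice: the correlation of deviations between same-numbered mice was 0.12, -0.23 and -0.43. With a replicate block, limma called 0 genes in all lower (854 at an unadjusted p below 0.05), and a block on the name series also gave 0 (1077 unadjusted), against 235 without a block (1044 unadjusted). Leaving out 1 mouse at a time gave 0 to 254 genes called lower (0 without any 1 of the 3 controls or JunBdep 1, 125 without the library labelled JunBdep 0, 254 without JunBdep 2) and 0 to 10 called higher (10 without the library labelled JunBdep 0). Among other pathway genes it gave 0 to 1 called lower, Akr1b10 without JunBdep 2. The cause was not tested. Without read depth, low values such as those of Dhrs9 and Aldh1a2 have no counting error attached.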
